A study of Mus musculus with 4 samples.

Results

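The genes described here are 44 regulators and executioners of programmed cell death: the BCL2 family, caspases, inhibitor of apoptosis proteins, death receptors with their ligands and adaptors, and the necroptosis pair Ripk3 and Mlkl. They were chosen by name, by their place in these pathways, out of 49826 genes and transcripts on the array. Of the 44 genes, 38 gave a signal that could be tested, among 24658 genes and transcripts tested in all. RNA came from chemically transformed C3H10T1/2 cells, a mouse embryo fibroblast line that piles up into foci once transformed. All cultures had been exposed to the carcinogen 3MC, then repeatedly to the tumour promoter TPA, and grown on in plain medium before the experiment, so the untreated group carries that history too. The untreated group has 2 arrays and received nothing further, and the DEM group has 2 arrays of the same transformed cells exposed to 0.25 mM DEM. DEM is the usual abbreviation for diethyl maleate, an electrophile that depletes glutathione; the labels give only the abbreviation. How long the cells were exposed is not stated in the sources used here. There is 1 transformed line and no array of the parental cells among these samples, so every comparison is of DEM within the transformed state.

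Apoptosis runs along a pair of routes that meet at the executioner caspases. In the mitochondrial route, BH3-only proteins switch off the survival members of the BCL2 family and let the pore formers open the outer mitochondrial membrane. Cytochrome c then leaves the mitochondrion and assembles the apoptosome with Apaf1 and Casp9, while Diablo and Htra2 neutralise the inhibitor of apoptosis proteins. In the receptor route, Fas or a TNF family receptor recruits Fadd, Tradd and Ripk1 and activates Casp8, which Cflar holds in check. Where Casp8 is held back, Ripk1 can pass the signal to Ripk3 and Mlkl, and the membrane ruptures by necroptosis. Most of these proteins are controlled by cleavage, release or binding, so a transcript level describes the supply of a component and not the activity of the route.

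Each array reads a gene through probes of 60 bases, and several results below depend on which probe is read. The first 30 bases of the probes concerned are shown here 5′ to 3′ in lower case, as the array files give them. The Cflar probes are shown because those designed on the 2 annotated transcript variants moved apart, the Mcl1 pair because its probes disagreed in direction, and the Fas and Bmf probes because they carried large decreases.
Cflar, transcript variant 1, brightest probe: ttttttgttttagggtctcactatgtaact
Cflar, transcript variant 1, other probe: gatttgacactgaatgtaacttgagactta
Cflar, transcript variant 2, first probe: gactactgtggaaagctttcttttagtctc
Cflar, transcript variant 2, second probe: ctgaagaacatccacagaatagacttgaac
Mcl1, brightest probe: gctgcttggaaagatggctctcagcaaaat
Mcl1, other probe: tgcagcttctctagttagaaatgtatttct
Fas, brightest probe: caactcctggtgtgttctctttgccagcaa
Fas, probe of transcript variant 2: ggagagactctttaaaatgaaaacacaata
Bmf, brightest probe: ttttttggttctttatatgtatacatgtgt
The second Cflar variant 2 probe is also listed by the array files against variant 1, so it does not separate them.

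All levels below are log2 processed signal, scaled so that 0 is the 75th percentile of the same array, and they are read from the brightest probe of each gene. A change is the mean of the DEM arrays minus the mean of the untreated arrays on this log2 scale, with limma's standard error, and a gene passed where its Benjamini-Hochberg adjusted p over all genes tested was under 0.05. Nothing in the labels tells whether both arrays of a condition hold RNA of independent cultures; the p-values then measure only the spread between arrays, which may be technical. The RNA is from whole cultures, in which fewer cells of a type and less RNA per cell cannot be told apart. No spot was saturated. From 47.8% to 49.2% of probe spots were well above background on the DEM arrays, against 52.3% and 52.7% on the untreated arrays. Arrays of the same group correlated at 0.984 to 0.987 over probes, and arrays of different groups at 0.964 to 0.968. The 4 arrays shared a slide, with the untreated arrays in one row and the DEM arrays in the other, so position and treatment cannot be told apart. All 10 fibroblast markers examined were measured, 9 of them well above background on all 4 arrays and Lum on the 2 untreated arrays alone; 6 of the 10 passed as lower with DEM (Col1a2, Col3a1, Pdgfra, Pdgfrb, Dcn and Lum) and 0 as higher, nor did any at an unadjusted p. Their summed linear level was 994 and 1040 without DEM and 592 and 681 with it. Of the macrophage markers 3 of 7 were measured, with a summed level of 4.15 to 6.22 on the 4 arrays, and Adgre1, Csf1r, Itgam and Ptprc were not; Lyz2 passed as lower (log2 change -1.85, adjusted p 0.0141). Of 6 T and NK cell, 5 endothelial and 5 epithelial markers 1 each was measured, with sums of at most 0.201, and of these the endothelial marker Tek passed as lower (adjusted p 0.0114) and was not well above background with DEM. The skeletal muscle list had 2 of 5 measured, Acta1 and Tnnt1, both lower, and its sum went from 6.34 and 7.58 to 0.602 and 0.583. The part of these shifts in the changes below was not tested.

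Of the 38 measured cell death genes, 13 passed as higher with DEM and 5 as lower, while 20 did not pass. That is 34.2% higher and 13.2% lower. Over all 24658 genes 15.5% passed as higher and 11.8% as lower, and over the 12680 protein-coding genes 16.7% passed in each direction. Under this processing the share that rose was above the background share and the share that fell was near it; the former did not hold under every alternative, as given after the plot of levels. The median change was 0.41, beside 0.16 for all genes and 0.10 for protein-coding genes, with single values from -2.47 to 1.44. That median was 0.20 with all kept probes averaged (0.14 for all genes), 0.24 with cyclic loess (0.01), 0.25 with the detected percentile (0.00) and 0.06 with the spike-in scaling (-0.18). The genes that rose were Bcl2l2, Mcl1, Bok, Cycs, Diablo, Htra2, Cflar, Tnfrsf1a, Tnfrsf10b, Traf2, Ripk1, Ripk3 and Mlkl. Those that fell were Bcl2l11, Bmf, Casp6, Casp12 and Fas. A call together with a change of at least 2-fold was reached by 4 genes upward (Mlkl, Ripk1, Cycs and Tnfrsf10b), where 8.66% of all genes reached it, and by 3 downward (Bmf, Fas and Casp12), where 9.74% did. Both DEM arrays lay above both untreated arrays in 20 of the 38 and below them in 9, against 42.4% and 26.0% of all genes. The filter on dim probes did not pick these genes through one group: all 4 arrays had 37 of the 38 well above background, and 3 arrays had Bad so.

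**Figure D1:**
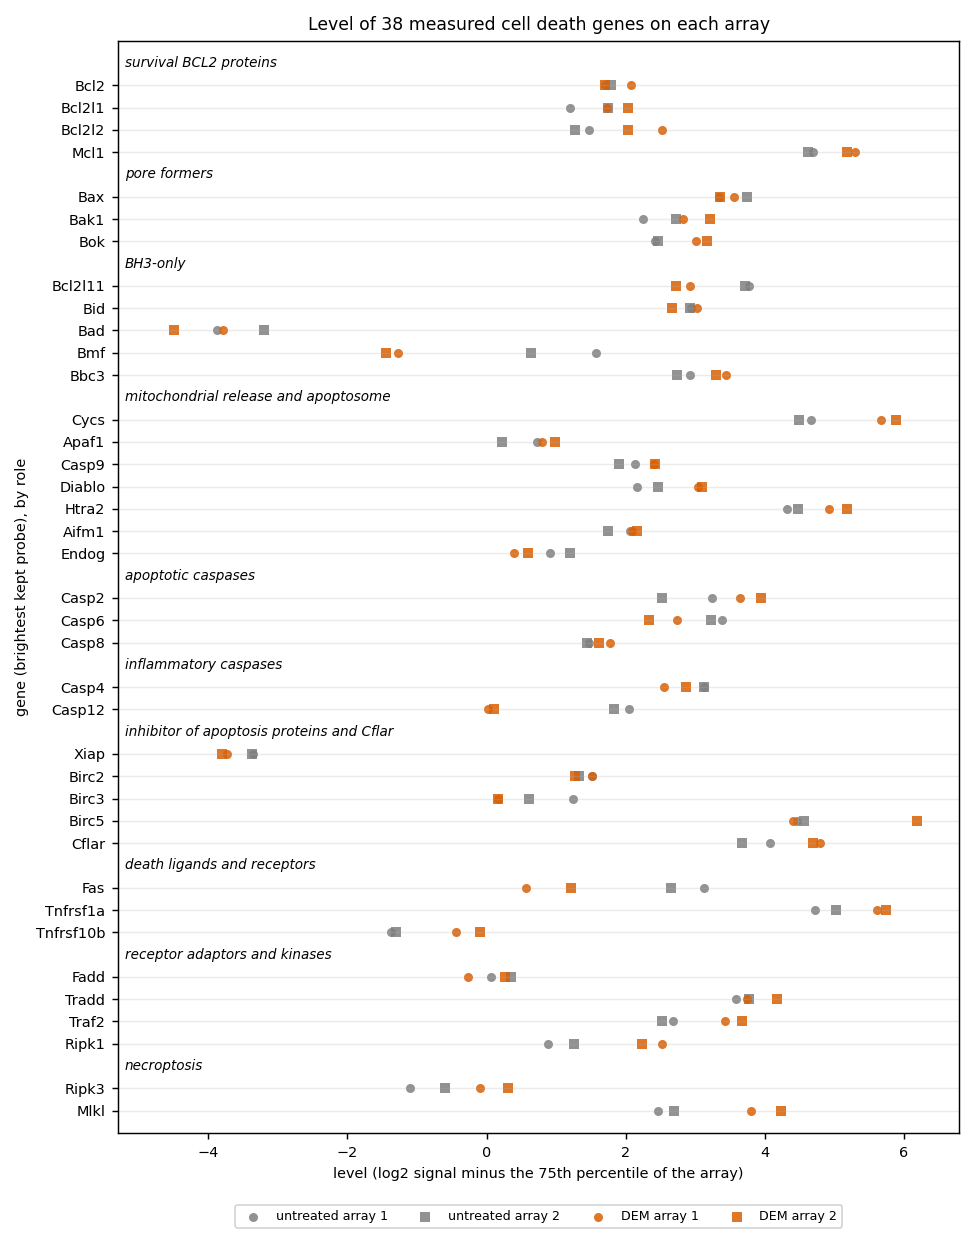
Level of each of the 38 measured cell death genes on each array, grouped by role, on a log2 scale where 0 is the array's 75th percentile; grey marks are the untreated arrays and orange marks the DEM arrays. Cycs, Ripk1 and Mlkl have both orange marks to the right of both grey marks, Bmf, Casp12 and Fas have them to the left, and the Birc5 marks of the DEM arrays lie far apart at 4.41 and 6.19.

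The size of these counts depended on which array was left out. A fit with 1 untreated array takes its spread from the DEM pair alone, and a fit with 1 DEM array from the untreated pair. The median gap over all genes was 0.29 between the DEM arrays and 0.20 between the untreated arrays. Levels and spread thus change together, and the part of each in these counts was not tested. Without untreated array 1, 1 cell death gene passed as higher and 2 as lower, and without untreated array 2, 2 and 3 did. Over all genes, 836 then passed as higher and 872 as lower without untreated array 1, and 644 and 802 without untreated array 2, in place of 3812 and 2900. The share of cell death genes higher was then 2.63% and 5.26%, beside 3.39% and 2.61% of all genes. Without DEM array 1 the cell death counts were 13 and 5, and without DEM array 2 they were 10 and 4. The scaling mattered as well: quantile normalization gave 5 higher and 5 lower, cyclic loess 6 and 5, the 75th percentile over detected probes 7 and 6, and scaling to the spike-in controls 0 and 3. The share of cell death genes higher was thus 13.2%, 15.8%, 18.4% and 0.0% under these settings, beside 11.8%, 10.3%, 10.5% and 2.66% of all genes. The share lower was 13.2%, 13.2%, 15.8% and 7.89%, beside 13.4%, 14.9%, 14.5% and 9.17%. With quantile normalization both shares were therefore near those of all genes. With no filter on dim probes 34.1% of the 44 were higher, beside 34.8% of all genes. That fit adds probes not well above background. The 75th percentile signal was 701.3 and 747.2 untreated and 449.9 and 412.5 with DEM. After scaling, the lowest signal well above background was -4.82 and -4.80 untreated and -4.28 and -4.16 with DEM. These 2 shares are thus not like those of the filtered fits, and the part of that shift in them was not tested. At an unadjusted p under 0.05, limma gave 1 cell death gene with a higher and 6 with a lower level under the spike-in scaling. The log2 75th percentile minus the mean spike-in signal was -0.01 and -0.49 untreated and -0.27 and -0.92 with DEM, so it differed within groups. Standard errors were wider under this scaling: Mlkl changed by 1.10 (SE 0.51), against 1.44 (SE 0.21) as reported. Smaller increases and wider spread thus occur together there, and the part of each in the lost calls was not tested. The share of higher calls among all called genes was 56.8%, and it was 70.0% with normexp background correction, 40.8% with cyclic loess, 42.1% with the detected percentile, 22.5% with the spike-in scaling and 84.7% with no filter on dim probes. The median change of all genes moved from 0.16 to 0.01, 0.00 and -0.18 under cyclic loess, the detected percentile and the spike-in scaling, and to 0.47 with no filter. None of the 18 called cell death genes turned its direction under the 5 changes of scaling or background correction. Bmf and Casp12 passed under all 15 alternatives tried, the only 2 of the 18 that did, and Fas under all but the one without untreated array 1, where its adjusted p was 0.0504.

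**Figure D2:**
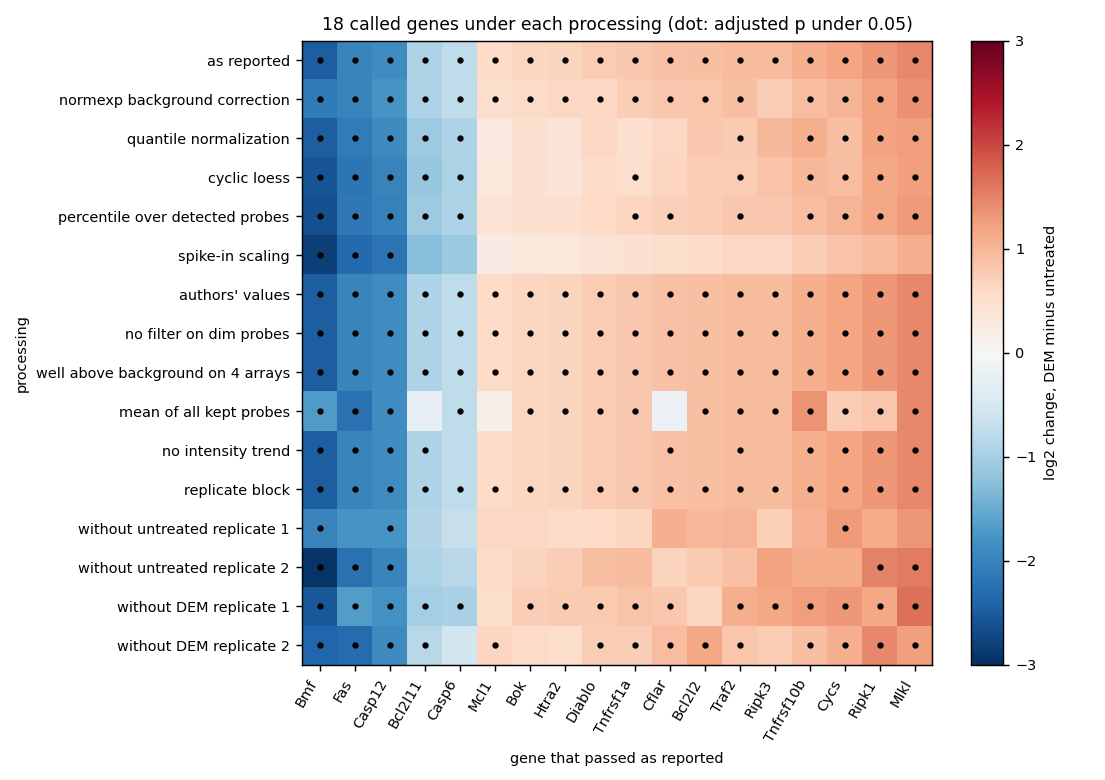
Change of the 18 cell death genes that passed, under the reported processing and 15 alternatives; colour is the log2 change from DEM minus untreated, and a dot marks an adjusted p under 0.05. The columns of Bmf and Casp12 have a dot in every row, the spike-in row has dots at 3 genes, and the Cflar column changes colour where all kept probes are averaged.

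Counts by role, given from here on, cover 2 to 7 measured genes each, where 15.5% of all genes passed as higher and 11.8% as lower. Such small counts are not results about a role. Survival members of the BCL2 family, which bind and restrain the pore formers, had 2 of 4 genes higher and 0 lower, also 0 lower at an unadjusted p under 0.05. Their median change of 0.50 ranged from 0.11 to 0.62 over the alternatives. Mcl1, a short-lived survival protein, read 4.70 and 4.62 without DEM and 5.30 and 5.18 with it, without overlap. It rose by 0.58 (SE 0.15), 1.50-fold, with an adjusted p of 0.0364. Bcl2l2, which encodes BCL-W, read 1.48 and 1.27 untreated and 2.52 and 2.03 with DEM. Both DEM values were above both untreated values, and the gene rose by 0.90 (SE 0.23), 1.86-fold, with an adjusted p of 0.0349. Bcl2l1, the gene of BCL-XL, read 1.20 and 1.75 untreated and 1.73 and 2.04 with DEM, which overlap (change 0.41, adjusted p 0.263). Bcl2, the founding member of the family, read 1.70 and 1.79 and then 2.08 and 1.70, which also overlap (adjusted p 0.64), and its change of 0.14 became -0.20 under the spike-in scaling and -0.02 under cyclic loess and the detected percentile. Dimmer kept probes pointed the other way: the change was -0.12 for Bcl2, -0.04 and -0.23 for Bcl2l1, and -0.24 for Mcl1. The call of Mcl1 was lost in 9 of 15 alternatives (log2 change 0.17 to 0.64, adjusted p 0.0234 to 0.917) and that of Bcl2l2 in 8 (0.55 to 1.15, 0.00746 to 0.709). Without untreated array 1, untreated array 2 or DEM array 1 the adjusted p was 0.166, 0.222 and 0.0624 for Mcl1 and 0.124, 0.198 and 0.055 for Bcl2l2.

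Among the pore formers, the proteins that open the outer mitochondrial membrane, 1 of 3 rose. Bok read 2.42 and 2.46 without DEM and 3.01 and 3.17 with it, which do not overlap, and it rose by 0.65 (SE 0.17), 1.57-fold, with an adjusted p of 0.0369. Bax, the pore former held in the cytosol, read 3.35 and 3.74 and then 3.56 and 3.36. Its groups overlapped, with a change of -0.08 and an adjusted p of 0.782, and the sign turned without untreated array 2 (0.11) or DEM array 2 (0.02). Bak1, which sits on the mitochondrion, read 2.25 and 2.73 untreated and 2.83 and 3.21 with DEM. These do not overlap, but the change of 0.53 (SE 0.24) had an adjusted p of 0.149. The call of Bok was lost in 8 of 15 alternatives (log2 change 0.31 to 0.73, adjusted p 0.0148 to 0.889), among them the omission of untreated array 1 (0.195), untreated array 2 (0.182) or DEM array 2 (0.0617).

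Of the BH3-only genes, the sensors that start the mitochondrial route, 2 of 5 measured genes fell and 0 rose. Their median of -0.61 is the value of Bad, which was dim and did not pass. The median became -0.16 with normexp, -0.24 with probes averaged, -0.26 without untreated array 2 and -0.25 without DEM array 2. With no filter on dim probes it was 0.10 over all 8 genes. The genes this added, Bik, Hrk and Pmaip1, were well above background on no array. Among the 5 measured genes, limma gave 1 higher (Bbc3) and 2 lower at an unadjusted p under 0.05. Bmf, whose protein is released from the cytoskeleton when cells detach, had the largest decrease of all the cell death genes chosen. It read 1.58 and 0.64 without DEM and -1.28 and -1.44 with it, far apart. Bmf fell by 2.47 (SE 0.33), 5.54-fold lower, with an adjusted p of 0.00545. A dimmer Bmf probe, also well above background on all 4 arrays, read a change of only -0.43, so the size is uncertain. With all kept probes averaged, the change of Bmf was -1.71, beside -2.23 for Fas. Bcl2l11, which encodes BIM, read 3.78 and 3.71 untreated and 2.92 and 2.72 with DEM. The DEM values were both lower, and Bcl2l11 fell by 0.93 (SE 0.17), 1.90-fold, with an adjusted p of 0.0128. Bbc3, which encodes PUMA, read 2.92 and 2.74 and then 3.44 and 3.30, higher on both DEM arrays, but its change of 0.54 (SE 0.17) had an adjusted p of 0.0645; it passed with no filter on dim probes (0.0315), and the adjusted p ranged from 0.0315 to 0.944 over the alternatives. Bid, which Casp8 cleaves to link both routes, read 2.94 and 2.92 and then 3.02 and 2.66, with overlap (change -0.09, adjusted p 0.756). Bad, which growth factor kinases hold inactive, was dim, at -3.88 and -3.20 untreated and -3.79 and -4.50 with DEM (adjusted p 0.309). The call of Bcl2l11 was lost in 4 of 15 alternatives (log2 change -1.27 to -0.24, adjusted p 0.00784 to 0.361), at 0.1 without untreated array 1 and 0.0904 without untreated array 2.

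The remaining BH3-only genes Bik, Hrk and Pmaip1, the caspase gene Casp1 and the ligand genes Fasl and Tnfsf10 were not measured, which makes 6 of 44. None of them had a probe well above background on 2 arrays. Pmaip1, which encodes NOXA, read -7.01 and -7.04 untreated and -6.49 and -6.33 with DEM, and Hrk read -6.61, -7.01, -6.39 and -6.30. The lowest signal well above background was -4.82 and -4.80 without DEM and -4.28 and -4.16 with it, so these levels are not well above background and have no order. Bik read -5.03 to -4.66 and Casp1 -6.01 to -4.80 over the 4 arrays. Tnfsf10, the gene of the ligand TRAIL, read -6.60 to -5.13. Fasl read -7.09 and -7.03 untreated and -3.77 and -6.18 with DEM, and it was well above background on the first DEM array alone.

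Genes of mitochondrial release and the apoptosome had 3 of 7 members higher and 0 lower, with a median of 0.43 (0.08 to 0.58 over the alternatives); at an unadjusted p under 0.05, limma gave 3 higher and 1 lower (Endog). Cycs, the cytochrome c gene, read 4.67 and 4.50 without DEM and 5.67 and 5.89 with it. The groups were well separated, and Cycs rose by 1.19 (SE 0.16), 2.28-fold, with an adjusted p of 0.00576. Its brightest probe is also listed against several predicted transcripts resembling cytochrome c. The 2 other Cycs probes, also listed against predicted transcripts but fewer, read changes of 0.63 and 0.46, so the size is uncertain. Diablo, which releases caspases from inhibitor of apoptosis proteins, read 2.16 and 2.47 untreated and 3.04 and 3.10 with DEM. It rose by 0.76 (SE 0.19), 1.69-fold, with an adjusted p of 0.031. Htra2, a mitochondrial serine protease with the same action on these inhibitors, read 4.32 and 4.48 and then 4.93 and 5.19. Both DEM values were above both untreated values (change 0.66, SE 0.17, 1.58-fold, adjusted p 0.0357). Apaf1 and Casp9, the scaffold and the caspase of the apoptosome, did not pass: Apaf1 read 0.72 and 0.22 and then 0.80 and 0.99 (change 0.43, adjusted p 0.226), and Casp9 read 2.13 and 1.90 and then 2.41 and 2.42 (0.40, 0.147). Aifm1, a mitochondrial oxidoreductase that can move to the nucleus, read 2.07 and 1.75 and then 2.09 and 2.17 (change 0.22, adjusted p 0.431), with the sign turned under the spike-in scaling (-0.12) and the mean of its probes (-0.07). Endog, a mitochondrial nuclease, read 0.91 and 1.20 untreated and 0.39 and 0.59 with DEM, lower on both DEM arrays (change -0.56, SE 0.20, adjusted p 0.0905); it passed under the detected percentile (0.0465), over a range of 0.0465 to 0.434. Calls were lost without untreated array 2 for Cycs (adjusted p 0.062; 0.00246 to 0.316 over the alternatives), without untreated array 1 or 2 for Diablo (0.199 and 0.0974; 0.017 to 0.817), and without these or DEM array 2 for Htra2 (0.208, 0.145 and 0.0638; 0.0181 to 0.869). All 3 calls were also lost under the spike-in scaling, where the log2 changes were 0.85 for Cycs, 0.41 for Diablo and 0.32 for Htra2, and those of Diablo and Htra2 under quantile normalization, cyclic loess, the detected percentile and with no intensity trend.

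The apoptotic caspases, the proteases that carry out the death signal, had 1 of 3 genes lower. Casp6, an executioner that cuts nuclear lamins, read 3.38 and 3.23 without DEM and 2.74 and 2.33 with it. It was lower on both DEM arrays and fell by 0.77 (SE 0.20), 1.70-fold, with an adjusted p of 0.0391. Casp2, a caspase activated on its own platform after DNA damage, read 3.24 and 2.52 untreated and 3.65 and 3.95 with DEM. Its untreated arrays lay well apart, and the change of 0.92 (SE 0.28, 1.89-fold) had an adjusted p of 0.0551; it passed in 4 of 15 alternatives, with adjusted p from 0.0337 to 0.666. Casp8, the initiator of the receptor route, read 1.48 and 1.45 and then 1.77 and 1.61, a change of 0.23 with an adjusted p of 0.382. The executioner genes other than Casp6 are not among the genes chosen. The call of Casp6 was lost in 5 of 15 alternatives (log2 change -1.11 to -0.56, adjusted p 0.0111 to 0.204), at 0.204 without untreated array 1, 0.154 without untreated array 2 and 0.0656 without DEM array 2.

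Of the inflammatory caspases, which act in innate immune signalling more than in apoptosis, 1 of 2 measured genes fell and 0 rose, at an adjusted p and at an unadjusted p under 0.05. Casp12, a caspase of the endoplasmic reticulum in rodents, read 2.05 and 1.83 without DEM and 0.02 and 0.11 with it. Each pair was tight and the pairs were far apart. Casp12 fell by 1.87 (SE 0.19), 3.65-fold lower, with an adjusted p of 0.00257. Like that of Casp4, its only probe is also listed against a predicted transcript. Casp4, which senses bacterial lipopolysaccharide inside the cell, read 3.13 and 3.13 untreated and 2.55 and 2.87 with DEM. It was lower on both DEM arrays, by 0.42 (SE 0.18), with an adjusted p of 0.142.

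**Figure D3:**
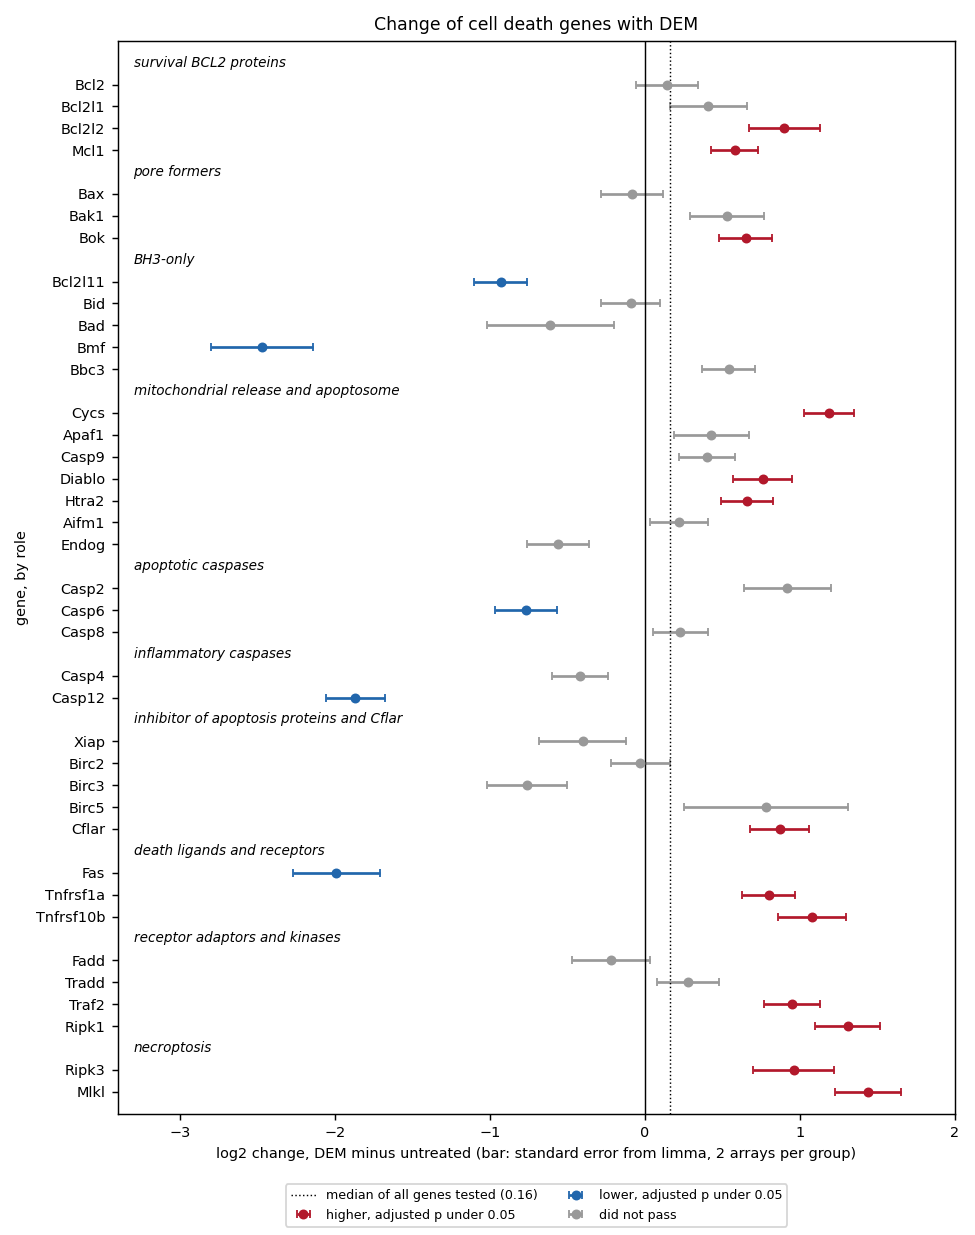
Change of each of the 38 measured cell death genes with DEM, grouped by role; points are log2 changes, bars the standard errors from limma with 2 arrays per group, red for higher and blue for lower at an adjusted p under 0.05, and the dotted line the median of all genes tested, 0.16. The blue points of Bmf, Fas and Casp12 lie near -2, and the red points of necroptosis and of the receptor adaptors lie near 1.

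Inhibitor of apoptosis proteins block caspases directly or guide ubiquitin signals at death receptors, and together with Cflar they had 1 of 5 genes higher and 0 lower. At an unadjusted p under 0.05, limma gave 1 higher (Cflar) and 1 lower (Birc3). Xiap, the direct caspase inhibitor, was dim and read -3.36 and -3.38 untreated and -3.73 and -3.81 with DEM (adjusted p 0.33); its change of -0.40 became 0.14 with normexp background correction. Birc2, which encodes cIAP1, read 1.52 and 1.33 and then 1.51 and 1.27 (change -0.03, adjusted p 0.912). Birc3, which encodes cIAP2, read 1.24 and 0.61 untreated and 0.17 and 0.17 with DEM, lower on both DEM arrays. Its change of -0.76 (SE 0.26) had an adjusted p of 0.0745 and passed at 0.0465 with the replicate block, over a range of 0.0465 to 0.397. Birc5, the gene of survivin, is tied to mitosis and rises in dividing cells. It read 4.47 and 4.57 untreated and 4.41 and 6.19 with DEM, so the first DEM array was at the untreated level and the second far above it. The change of 0.78 (SE 0.53) had an adjusted p of 0.319, with 1.67 and an adjusted p of 0.00101 without DEM array 1 and -0.11 without DEM array 2.

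Cflar, the gene of the Casp8 decoy FLIP, read 4.07 and 3.67 without DEM and 4.80 and 4.69 with it at the brightest probe, which was designed on transcript variant 1. The groups did not overlap, and it rose by 0.87 (SE 0.19), 1.83-fold, with an adjusted p of 0.0222. The other variant 1 probe read 0.50 and 0.54 untreated and 1.19 and 1.13 with DEM, a change of 0.64 in the same direction. The variant 2 probe not listed against variant 1 went the other way: -3.46 and -3.47 untreated against -4.82 and -5.57 with DEM. The array files also list this probe against predicted transcripts, so it is not a reading of variant 2 alone. On the DEM arrays it was not well above background. It was 1.69-fold lower when taken against the higher of its own level and the lowest signal well above background on each DEM array. That lowest signal is taken over the whole array and is no limit for a single probe, so the value is not a strict lower bound. The probe listed against both variants read -3.82 and -3.46 and then -3.41 and -4.84, with overlap. The mean of all kept Cflar probes therefore had a change of -0.18, against 0.87 at the brightest probe. At the brightest probe the call was lost without untreated array 1 (adjusted p 0.0597) or untreated array 2 (0.154) and under quantile normalization, cyclic loess and the spike-in scaling (0.0679, 0.0662 and 0.692); over all 15 alternatives the adjusted p ran from 0.00856 to 0.692.

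The death receptors moved in opposite directions, with 2 of 3 measured genes higher and 1 lower, beside 15.5% and 11.8% of all genes. Fas, the receptor of Fasl, read 3.13 and 2.65 without DEM and 0.57 and 1.21 with it. The groups lay far apart, and Fas fell by 1.99 (SE 0.28), 3.99-fold lower, with an adjusted p of 0.00632. The probe of Fas transcript variant 2 read -0.34 and -0.74 untreated and -3.93 and -2.09 with DEM, a decrease too, of 5.52-fold. Tnfrsf1a, the main TNF receptor, read 4.73 and 5.03 untreated and 5.62 and 5.74 with DEM. Both DEM arrays were above both untreated arrays, and it rose by 0.80 (SE 0.17), 1.74-fold, with an adjusted p of 0.0208. Tnfrsf10b, the mouse receptor of TRAIL, read -1.38 and -1.30 and then -0.44 and -0.09. It rose by 1.08 (SE 0.22), 2.11-fold, with an adjusted p of 0.0187, and its 2 other probes read changes of 2.03 and 0.94. Without untreated array 1 the adjusted p was 0.0504 for Fas (log2 change -1.76), 0.149 for Tnfrsf1a (0.65) and 0.131 for Tnfrsf10b (1.04), and without untreated array 2 it was 0.0766 for Tnfrsf1a (0.95) and 0.122 for Tnfrsf10b (1.11). Over the 15 alternatives the adjusted p ran from 0.000222 to 0.0504 for Fas, 0.00767 to 0.746 for Tnfrsf1a and 0.00627 to 0.562 for Tnfrsf10b, with both increases lost under the spike-in scaling and that of Tnfrsf1a also under quantile normalization and with no intensity trend.

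Downstream of the receptors, 2 of 4 adaptors and kinases rose and 0 fell, also 0 at an unadjusted p under 0.05. Of all genes, 15.5% passed as higher and 11.8% as lower. Ripk1, the kinase that decides between survival signalling, apoptosis and necroptosis at the TNF receptor, read 0.89 and 1.26 without DEM and 2.52 and 2.24 with it. The groups were clearly apart, and Ripk1 rose by 1.31 (SE 0.21), 2.47-fold, with an adjusted p of 0.00956. Traf2, which brings the cIAP ligases to the receptor, read 2.68 and 2.53 untreated and 3.43 and 3.68 with DEM, and it rose by 0.95 (SE 0.18), 1.94-fold, with an adjusted p of 0.0146. Fadd, the adaptor that recruits Casp8, read 0.07 and 0.35 and then -0.27 and 0.26, with overlap (change -0.22, adjusted p 0.556; 0.05 without DEM array 1). Tradd, the first adaptor of the TNF receptor, read 3.59 and 3.77 and then 3.75 and 4.17, again with overlap (change 0.28, adjusted p 0.345; -0.06 under the spike-in scaling). Without untreated array 1 the adjusted p was 0.0759 for Ripk1 (log2 change 1.12) and 0.0794 for Traf2 (1.03), and without untreated array 2 it was 0.114 for Traf2 (0.88). Over the 15 alternatives it ran from 0.00462 to 0.303 for Ripk1 and from 0.00779 to 0.635 for Traf2, highest under the spike-in scaling.

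Both necroptosis genes rose, where 15.5% of all genes passed as higher. Mlkl, the protein that breaks the plasma membrane, read 2.47 and 2.70 without DEM and 3.81 and 4.24 with it. It had the largest increase of the 38 genes, 1.44 (SE 0.21) or 2.71-fold, with an adjusted p of 0.00679. Ripk3, the kinase that activates Mlkl, read -1.10 and -0.60 untreated and -0.10 and 0.31 with DEM. The groups did not overlap, and Ripk3 rose by 0.96 (SE 0.26), 1.94-fold, with an adjusted p of 0.0436, the closest to the threshold of the 18 calls. Mlkl lost its call without untreated array 1 (log2 change 1.32, adjusted p 0.0576) and under the spike-in scaling (1.10, 0.174), within a range of 0.00159 to 0.174. Ripk3 lost its call in 9 of 15 alternatives (0.0154 to 0.672), at 0.253 without untreated array 1, 0.103 without untreated array 2 and 0.0707 without DEM array 2.

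Genes that promote apoptosis and genes that restrain it had medians closer together than the arrays allow to tell apart. Of 23 measured pro-apoptotic genes (28 chosen), 6 rose, 4 fell and 13 did not pass, with a median change of 0.28. Of 9 anti-apoptotic genes, all measured, 3 rose, 0 fell and 6 did not pass, with a median of 0.41; at an unadjusted p under 0.05, limma gave 3 higher and 1 lower. The 6 measured genes with neither role (Casp4, Casp12, Traf2, Ripk1, Ripk3 and Mlkl, of 7 chosen) had 4 higher, 1 lower and a median of 0.95. Over all genes 15.5% passed as higher and 11.8% as lower, with a median change of 0.16. Each DEM array was then set against each untreated array, giving 4 pairs that share arrays. Over these pairs the median ran from 0.21 to 0.42 (SD 0.09) for pro-apoptotic genes, from 0.18 to 0.48 (SD 0.13) for anti-apoptotic genes and from 0.71 to 1.18 (SD 0.20) for the rest. The pro-apoptotic median minus the anti-apoptotic median was -0.13, and over the pairs it ran from -0.21 to 0.14 (SD 0.19), so the difference was smaller than the spread between arrays and its sign depended on the pair. It became 0.28 when all kept probes of a gene were averaged, since the anti-apoptotic median fell to 0.01. Without untreated array 1 it was 0.16, and without untreated array 2 it was -0.33.

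Probes of one gene did not always move together. The 44 genes had 69 probes, of which 61 were kept, and 27 genes had 1 probe. In 15 genes several probes were kept; all probes pointed one way in 7 of them (Bak1, Bmf, Cycs, Fas, Tnfrsf10b, Fadd and Tradd) and both ways in 8. Mcl1 was among the latter: its other probe read 2.99 and 2.85 untreated and 2.61 and 2.73 with DEM, a change of -0.24 against 0.58 at the brightest probe. That other Mcl1 probe is also listed against a predicted transcript. Bcl2l11 had a second probe at -2.19 and -2.26 and then -2.09 and -1.48, a change of 0.44 against -0.93. With probes averaged, the change of Mcl1 was 0.17 (adjusted p 0.45) and that of Bcl2l11 was -0.24 (0.361), so neither passed, and Cflar was the third call lost. Ripk1 had one probe at 1.26, close to the 1.31 of the brightest, and one at -0.06. For Bmf the other probes were dim. One read -3.49 and -3.35 and then -3.88 and -3.81, and was well above background on all 4 arrays. Its change was -0.43, 1.34-fold lower, against 5.54-fold at the brightest probe. The other read -3.54 and -4.45 and then -6.05 and -6.43. The latter was 1.17-fold lower when taken against the lowest signal well above background on each DEM array, again not a strict bound. The size of the Bmf decrease thus depended on the probe.

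**Figure D4:**
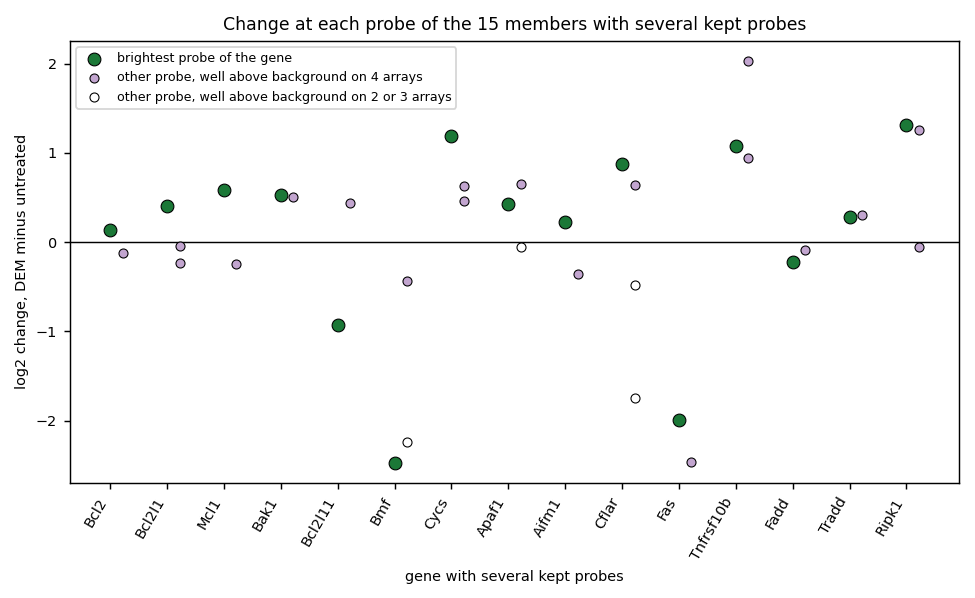
Log2 change at every kept probe of the 15 cell death genes with several kept probes; large green points are the brightest probe, small filled points other probes well above background on 4 arrays, and open points other probes well above background on 2 or 3 arrays. The Cflar column spreads from 0.87 to -1.74, while all Bmf, Fas and Tnfrsf10b points lie on one side of 0.

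Grouped by the factor best known to induce them, the chosen genes gave 1 called increase and 1 called decrease in each group. Beside this, 15.5% of all genes passed as higher and 11.8% as lower. Such small counts are not results about a factor. Of the 7 genes known to be induced by p53, 6 were measured, with Tnfrsf10b higher, Fas lower and a median of 0.17. The 4 genes known to respond to ATF4 or CHOP, factors of the integrated stress response, had 3 measured, with Tnfrsf10b higher, Bcl2l11 lower and a median of 0.54. Of 5 interferon-induced genes 3 were measured, with Mlkl higher, Fas lower and a median of -0.42. All 4 NF-kB-induced genes were measured, with Cflar higher, Fas lower and a median of -0.17. Several genes stand in more than one of these groups. Fas is the lower call in the p53, interferon and NF-kB groups, so these calls are not separate. Likewise, Tnfrsf10b is the higher call in the groups of p53 and of ATF4 or CHOP. Only the chosen genes were grouped. Xaf1 (log2 change -3.53) and Steap3 (-1.81), described below as interferon-induced and as a p53 target, both passed as lower and are not counted here. The other cell death genes were not sorted by inducer.

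The promoters were searched for sequence cores tied to such factors. RefSeq promoters on build GRCm38.p6, taken as the 250 bases before the annotated start, were found for 39 of the 44 genes. The antioxidant response core TGACNNNGC, bound by Nrf2 with small Maf proteins, was searched on both strands. It stood in the promoters of 4 of the 39 genes, 10.3%, beside 11.5% of 27025 genes with a promoter in the table. Those genes were Bcl2l1, Casp12, Hrk and Traf2, which between them hold a called increase, a called decrease, a gene that did not pass and one that was not measured. The ATF4 composite core TGATGNAA stood in 1 of 39, Hrk, beside 3.91% of all genes, and the interferon-stimulated response core in 0 of 39, beside 3.46%. The promoters of Traf2 and Casp12 are shown because they carry the antioxidant core, in capitals, before genes that changed in opposite directions. A match is a string of letters and not evidence of binding.
Traf2, chr2:25546941-25547190, minus strand: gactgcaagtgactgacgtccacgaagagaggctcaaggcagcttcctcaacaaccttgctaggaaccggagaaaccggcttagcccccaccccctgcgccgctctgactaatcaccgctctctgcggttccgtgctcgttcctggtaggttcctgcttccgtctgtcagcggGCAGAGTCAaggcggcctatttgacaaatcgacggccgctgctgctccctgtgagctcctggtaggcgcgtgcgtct
Casp12, chr9:5345226-5345475, plus strand: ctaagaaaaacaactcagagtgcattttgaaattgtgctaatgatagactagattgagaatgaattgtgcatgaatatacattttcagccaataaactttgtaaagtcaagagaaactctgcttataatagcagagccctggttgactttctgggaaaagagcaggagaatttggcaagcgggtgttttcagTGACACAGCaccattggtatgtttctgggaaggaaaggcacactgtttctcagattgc
The last base of each is the one before the annotated start, and the core of Traf2 begins 77 bases before the start and that of Casp12 58 bases before it.

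Other genes of the cell death pathways, 106 listed by function and 86 of them measured, had 11 higher and 11 lower, 12.8% in each direction, and a median of 0.10. Over protein-coding genes 16.7% passed in each direction, and over all genes 15.5% passed as higher and 11.8% as lower. The share higher was below both backgrounds, while the share lower was below the first and slightly above the second, without a test. Dedd2, a nuclear protein with a death effector domain, read 0.88 and 0.96 untreated and 3.24 and 3.36 with DEM, a rise of 2.38 (SE 0.17), 5.19-fold, with an adjusted p of 0.00114. Bcl2l15, a divergent BCL2 relative, read -2.69 and -3.39 and then -0.78 and -0.79 (4.76-fold higher, adjusted p 0.00518). Tnfrsf12a, the receptor of TWEAK, was 2.94-fold higher (adjusted p 0.00582) and the adaptor gene Traf1 was 2.83-fold higher (0.0261). Other genes of TNF receptor signalling passed as lower: Traf5 (log2 change -1.24), Cyld (-1.35) and Tnfaip3 (-1.63), picked after their values were seen to stand beside these. Larger decreases were found among the genes named by rule. Zbp1, a sensor of left-handed nucleic acids that can activate Ripk3, read 2.49 and 2.49 untreated and -2.21 and -3.26 with DEM, and it fell by 5.22 (SE 0.36), 37.4-fold lower, with an adjusted p of 0.00103. Tnfrsf11b, the gene of the decoy receptor osteoprotegerin, read 0.83 and 0.22 and then -3.75 and -3.71 (19.1-fold lower, adjusted p 0.000981). Xaf1, an interferon-induced antagonist of Xiap, read 0.70 and 0.97 and then -2.36 and -3.04 (11.6-fold lower, 0.0015). Steap3, a metalloreductase known as a p53 target, read -1.67 and -1.19 and then -3.50 and -2.97 (3.50-fold lower, 0.0109). In the necroptosis route, Zbp1 was thus lower on the same arrays on which Ripk1, Ripk3 and Mlkl were higher.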

How the data were processed

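Total RNA from 2 untreated and 2 DEM samples was labelled with Cy3 and measured on one-colour Agilent arrays. Groups and replicate numbers came from the labels. Spot intensity was read per the file headers from Feature Extraction 10.7.3.1, which had subtracted background and detrended the signal; a spot well above background is one that software marked. The deposited series table holds the authors' log2 values: at least 99.97% of 61307 probes differed by at most 0.01 from log2 processed signal after a constant per array was taken off (column medians -4.39, -4.35, -4.30 and -4.36), and it served as an alternative.

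Each array had 61657 probe spots besides 1319 control spots, which were left out, as were 130 probes with an outlier mark. Log2 processed signal minus the array's 75th percentile was averaged per probe. A probe was kept if 2 or more arrays had it well above background (31771 probes), and a gene was read from its brightest one. Names came from the RefSeq table of GRCm38.p6 by accession (28136 probes), symbol (4982) or synonym (1406), otherwise from the files (26783). The headers name mm9 for the array grid but the probes carry no positions, so no probe is placed on the genome; the 2 promoter positions printed are those of the RefSeq table. The number of arrays limits the precision: 2 residual and 4.03 prior degrees of freedom.

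The comparison used limma 3.58.1 under R 4.3.3 (lmFit, eBayes with an intensity trend; two-sided; Benjamini-Hochberg over 24658 genes). The procedure was checked on simulated data. The R package data.table (1.17.8), pandas 2.3.3 and matplotlib 3.10.9 were also used. The deviations of same-numbered arrays from their group means correlated at 0.0844; with 2 pairs the numbers were not taken to pair the arrays. The 15 alternatives covered background, scaling, filter, probe choice, trend, a replicate block and each array left out. Members and lists were chosen with earlier results of these data known, so no list was tested. Every chosen gene is named; of the other cell death genes, the 4 highest and 4 lowest changes that passed, were well above background on 4 arrays and did not overlap.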

Additional observations from a re-analysis of the deposited data

How the results depend on the processing

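With 2 arrays per group and no saturated spot, the number of arrays, and for dim genes the distance to background, limited what could be called. Genes higher numbered 3812 as reported, 6470 with normexp, 2529 with cyclic loess, 655 with the spike-in scaling and 17297 with no filter. Cell death genes higher numbered 13 as reported, 5 with quantile normalization, 6 with cyclic loess, 7 with the detected percentile, 0 with the spike-in scaling (1 at an unadjusted p under 0.05 by limma) and 6 with no intensity trend, and genes lower went from 5 to 3 with the spike-in scaling. The pro-apoptotic median of 0.28 became 0.13, 0.07, 0.12 and -0.06 with quantile, cyclic loess, detected percentile and spike-in scaling. The anti-apoptotic median of 0.41 became 0.25, 0.26 and 0.07 with the last 3 of these and 0.01 with probes averaged, and the median of the rest became 0.61 with the spike-in scaling. Pro minus anti, -0.13, became 0.28 with probes averaged. Leaving out 1 array at a time, with the lone array of its group assumed to vary like the other group's, gave 644 to 4488 genes higher and 802 to 3814 lower, 1 to 13 cell death genes higher and 2 to 5 lower, medians of 0.21 to 0.41 (pro), 0.14 to 0.54 (anti) and 0.79 to 1.12 (the rest), and pro minus anti from -0.33 to 0.16. Single genes that turned sign were Bad (0.06) and Xiap (0.14) with normexp; Bcl2 with cyclic loess (-0.02), the detected percentile (-0.02) and the spike-in scaling (-0.20); Aifm1 (-0.12), Casp8 (-0.12) and Tradd (-0.06) with the spike-in scaling; and Aifm1 (-0.07) and Cflar (-0.18) with probes averaged. With 1 array left out at a time, the change ran from -0.05 to 0.33 for Bcl2, -0.28 to 0.11 for Bax, -0.26 to 0.09 for Bid, -0.15 to 0.09 for Birc2, -0.48 to 0.05 for Fadd and -0.11 to 1.67 for Birc5. Apart from Cflar, these were genes that had not passed, and the cause was not tested. With the replicate block, 4473 genes were higher and 3378 lower, and 14 cell death genes were higher and 6 lower, with Casp2 and Birc3 gained and the other 18 calls kept. The authors' values kept all 18 calls.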

Other observations

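Birc5, the survivin gene, differed by 1.78 on the log2 scale between the DEM arrays and by 0.11 between the untreated arrays. Of all genes tested, 2.15% had a wider gap between the DEM arrays. The median gap was 0.29 over all genes and 0.24 over the measured cell death genes for the DEM arrays, and 0.20 and 0.23 for the untreated arrays.

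With no filter on dim probes, Pmaip1, the NOXA gene, passed as higher although no array had it well above background. Pea15a, which binds death effector domains, had the highest change among the other cell death genes, 5.47, but read 2.58 and -6.85 without DEM and 3.06 and 3.61 with it, and its adjusted p was 0.185. It was looked at after its value was seen.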
